A study of Arabis alpina with 12 samples.

Results

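KAT2 and PLC1 are 2 genes of Arabis alpina, a perennial relative of Arabidopsis thaliana, described here in lateral buds around the end of a cold winter treatment. They were chosen as the genes whose A. thaliana homologue is AT4G18290 or AT5G58670 in at least 1 of the 4 tables in which the authors listed changed genes. These 2 genes stand among 19722 in the count table. All plants were of the ecotype Pajares, with no mutant or transgene named, and had been vernalized for 12 weeks at 4 °C after 8 weeks of long days. The 4 groups were growing-zone buds (V3) and dormant-zone buds (V2) taken after 5 further days in long days (5 d), and V3 and V2 buds taken as the cold ended (0 d). Each group held 3 libraries of polyA RNA, which the series text calls biological replicates.

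KAT2 is a Shaker-type inward-rectifying potassium channel. In A. thaliana its transcript is found in guard cells and in the phloem of leaves, and it can assemble with its close relative KAT1. Potassium that enters guard cells through such channels draws in water and opens the stomatal pore. PLC1 is a phosphoinositide-specific phospholipase C, an enzyme that cuts a membrane phosphoinositide into diacylglycerol and a soluble inositol phosphate. In A. thaliana the PLC1 transcript is known to respond to drought, salt, cold and abscisic acid. The pathways meet in guard cells, where work in broad bean showed that inositol phosphate and calcium signals inhibit inward potassium channels.

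The members were selected on measured values, since the authors' tables list genes with an absolute log2 fold change above 1 and an adjusted p under 0.05. Every comparison of the study served that choice, so the values of KAT2 and PLC1 below are a description and carry no test. The authors' tables listed 10.1% of the 19722 genes for V3 over V2 at 5 d, 5.72% for V3 over V2 at 0 d, 8.96% for 5 d over 0 d in V3 and 8.91% for 5 d over 0 d in V2. KAT2 and PLC1 each appear in 2 of these 4 tables, and both appear in that for time in V3.

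V2 0 d replicate 3 held 12252622 recovered reads, and the other libraries held 18377958 to 22586938. A pair of measures was deposited for each library, a normalized count and an FPKM, which is a level per length of transcript. They disagree in places, since a count of 0 can stand beside a clear FPKM. Zeros contradicted in this way were left out as missing. For genes without an FPKM, a zero was left out where a partner library held a count of at least 20. Zeros left out by either rule numbered 886 to 1224 in 11 libraries and 6553 in V2 0 d replicate 3, the library of lowest depth. Of 17395 in all, 5320 were left out by FPKM and 12075 by partners. V3 0 d replicate 1 differed from its partners in several genes described below, and PLC1 was lower there than in any other library. Because these are whole buds, fewer cells of a type and less RNA per cell cannot be told apart.

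KAT2 (Aa_G155420, AALP_AA7G005400) was detected at an appreciable level in 1 group alone, the growing-zone buds 5 days after the cold. There it reached 4.65, 5.00 and 4.79 FPKM in the 3 libraries. Dormant-zone buds at the same time gave 0.148, 0.155 and 0.0722 FPKM. At 0 d the values were 0.0573, 0.0262 and 0 FPKM in V3 and 0.0245, 0.0269 and 0.0882 FPKM in V2. The 3 V3 libraries at 5 d were therefore high and close together, and the other 9 lay at or below 0.155 FPKM.

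The mean KAT2 level was 4.82 ± 0.176 FPKM in V3 at 5 d and 0.125 ± 0.0460 FPKM in V2 at 5 d (SD, n = 3 each), a ratio of 38.5. The lowest V3 library was 29.96 times the highest V2 library at 5 d, which is also the highest of all 9 other libraries. By that quantity KAT2 ranked 2 of 3860 listed genes, a position that follows in part from how the genes were listed. In V3 buds the mean at 5 d was 173 times that of 0.0278 ± 0.0287 FPKM at 0 d, and 368 times without V3 0 d replicate 1. These 2 V3 groups did not overlap, with the lowest library at 5 d 81.3 times the highest at 0 d.

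In dormant-zone buds the KAT2 values at the 2 times overlapped, through V2 0 d replicate 3 alone. The other V2 0 d libraries, at 0.0245 and 0.0269 FPKM, lay below all V2 5 d libraries, of which the lowest was at 0.0722 FPKM. The means were 0.125 FPKM at 5 d and 0.0465 ± 0.0361 FPKM at 0 d (SD, n = 3), a ratio of 2.69 that became 4.87 without V2 0 d replicate 3. The zones also overlapped at 0 d, with a ratio of V3 to V2 of 0.598, which was 0.282 without V3 0 d replicate 1 and 1.08 without V2 0 d replicate 3. The order of the group means was thus V3 5 d, V2 5 d, V2 0 d and V3 0 d, and the neighbours after the first step overlapped with all libraries kept.

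**Figure D1:**
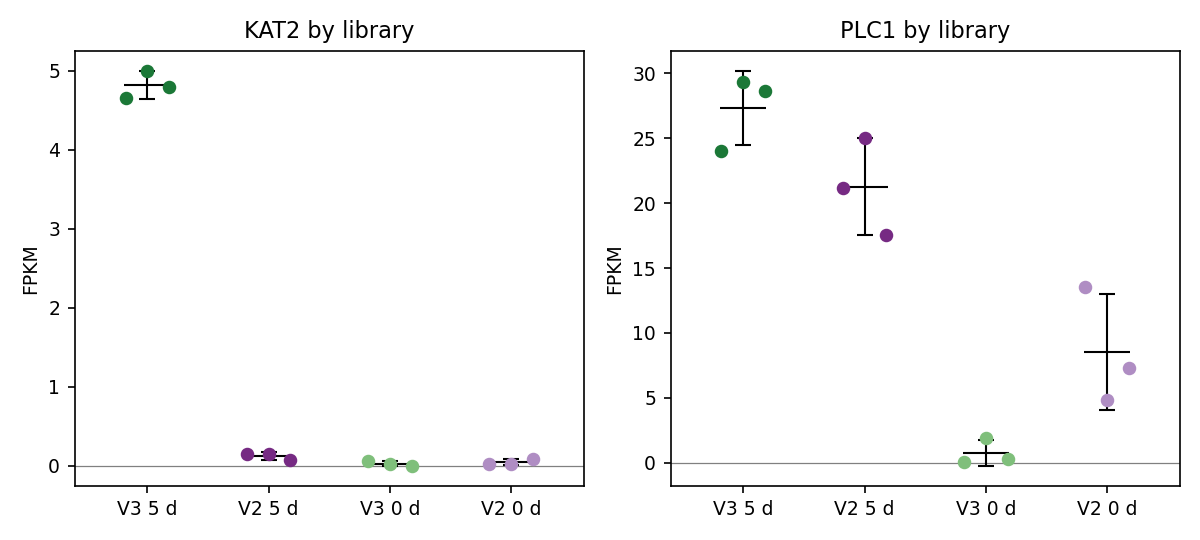
FPKM of KAT2 (left) and PLC1 (right) in each library (points) with the group mean and SD (bars), for V3 and V2 buds at 5 d and at 0 d. KAT2 lay at 4.65 to 5.00 FPKM in V3 at 5 d and at no more than 0.155 FPKM elsewhere, while PLC1 was high in both zones at 5 d, intermediate in V2 at 0 d and below 1.9 FPKM in V3 at 0 d.

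The count table gave the same single high group for KAT2. Normalized counts were 602, 609 and 719.8 in V3 at 5 d, from 618, 577 and 769 reads, and 0 in each of the other 9 libraries. Of these 9 zeros, 8 stood beside an FPKM above 0. From the FPKM, 19.2, 20.1 and 9.35 counts would have been due in V2 at 5 d and 0 to 11.4 in the libraries at 0 d, and the zero at 20.1 was left out. A count-based difference against these zeros is set by the pseudocount, so no count fold is given here. The authors' deposited table gave log2 fold changes of 11.77 for V3 over V2 at 5 d (adjusted p = 0.00863) and 11.82 for 5 d over 0 d in V3 (adjusted p = 0.0108). On the log2(FPKM + 1) scale the same differences were 2.37 and 2.50, a scale that understates low values.

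The number of counts per FPKM differed between the genes. KAT2 had 122 to 150 normalized counts per FPKM in its 3 high libraries, with a median of 129. Across 3860 listed genes the median was 24.1, and 93.5% lay below KAT2. PLC1 had a median of 36.8, and 69.9% lay below it. A count can include reads that the FPKM of a gene does not, or the reverse, and which of the measures is nearer to the KAT2 transcript was not tested. KAT1, the closest relative of KAT2, is not analysed here, and reads shared between such copies could have been assigned to either.

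PLC1 (Aa_G147880, AALP_AA8G379100) was high in both zones 5 days after the cold and differed between the zones when the cold ended. The levels were 24.0, 29.4 and 28.6 FPKM in V3 and 21.2, 25.05 and 17.6 FPKM in V2 at 5 d. At 0 d they were 0.0568, 1.87 and 0.304 FPKM in V3 and 13.5, 4.85 and 7.29 FPKM in V2. All 6 libraries at 5 d were above all 6 at 0 d, and at 0 d every V3 library lay below every V2 library.

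The zone difference in PLC1 at 0 d was 0.744 ± 0.984 FPKM in V3 and 8.55 ± 4.47 FPKM in V2 (SD, n = 3 each), a ratio of V3 to V2 of 0.087. The lowest V2 library was 2.59 times the highest V3 library. Without V3 0 d replicate 1 the ratio was 0.127, and without V2 0 d replicate 3 it was 0.0810. The authors' deposited table gave a log2 fold change of -10.49 for V3 over V2 at 0 d (adjusted p = 4.37e-06). Every V3 count at 0 d is listed as 0, and so is the V2 count beside 4.85 FPKM. The size of that fold is therefore not comparable with the FPKM ratio. At 5 d the zones overlapped, with 27.3 ± 2.88 FPKM in V3 and 21.3 ± 3.74 FPKM in V2 (SD, n = 3 each) and a ratio of 1.28.

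Over time the ratio of mean PLC1 levels, 5 d over 0 d, was 36.8 in V3 buds and 2.49 in V2 buds. The lowest library at 5 d was 12.9 times the highest at 0 d in V3 and 1.301 times in V2. Without V3 0 d replicate 1 the V3 ratio was 25.1, and without V2 0 d replicate 3 the V2 ratio was 2.32. The authors' deposited table gave a log2 fold change of 12.37 for 5 d over 0 d in V3 (adjusted p = 1.18e-08) and did not list PLC1 for time in V2. With every V3 count at 0 d listed as 0, the size of that fold is not comparable with the FPKM ratio either. The order of the means was V3 5 d, V2 5 d, V2 0 d and V3 0 d, as for KAT2, but in PLC1 the overlap was between the zones at 5 d.

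Normalized counts of PLC1 were 891.6, 941 and 996 in V3 and 816, 918 and 648 in V2 at 5 d. At 0 d all 3 V3 libraries were listed at 0, and the V2 libraries at 529, 0 and 241. The FPKM of those V3 libraries would give 2.09, 68.8 and 11.2 counts, and that of the V2 library at 0 would give 178 counts. The zeros at 68.8 and 178 were therefore left out, and 10 of 12 libraries remained. For time in V2, which the authors' table does not list for PLC1, the difference on the log2(normalized count + 1) scale was 1.14, or 3.96 with the zeros as deposited.

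**Figure D2:**
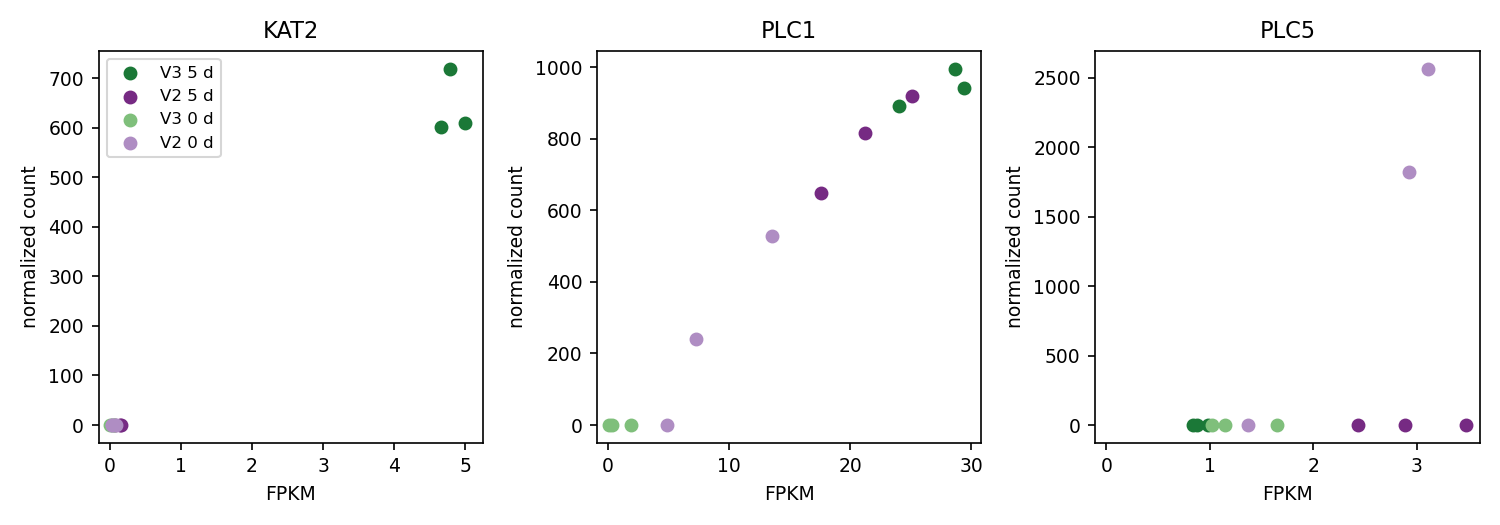
Normalized count against FPKM in the 12 libraries, coloured by group, for KAT2, PLC1 and the phospholipase gene PLC5. PLC1 counts climb with FPKM apart from a V2 0 d library at 4.85 FPKM and a V3 0 d library at 1.87 FPKM, both with 0 counts, KAT2 has 3 libraries with counts, and PLC5 has counts in V2 0 d replicates 1 and 3 alone although its FPKM is between 0.834 and 3.48 in every library.

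PLC5, another phosphoinositide-specific phospholipase C, is the relative of PLC1 that could be paired with an A. thaliana locus. Its FPKM averaged 0.895 ± 0.0739 in V3 and 2.93 ± 0.526 in V2 at 5 d, and 1.27 ± 0.331 in V3 and 2.47 ± 0.956 in V2 at 0 d (SD, n = 3 each). At 5 d the V3 libraries lay at 0.834 to 0.978 FPKM, below the V2 libraries at 2.43 to 3.48 FPKM. The zones thus did not overlap in PLC5 at 5 d, while in PLC1 they did. Its normalized counts were 2567 and 1821 in V2 0 d replicates 1 and 3 and 0 in the other 10 libraries, all 10 of which were left out, so no test was run on it. Those 2 libraries are also the V2 0 d libraries with PLC1 counts, but PLC1 had counts in every library at 5 d as well, where PLC5 was listed at 0. Whether reads shared between these related genes were assigned to either was not tested.

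The genes of both pathways were taken from 5 lists of A. thaliana loci, 123 loci in all, of which 16 could be paired, KAT2 and PLC1 among them. Homologues are given for listed genes alone, so all 14 others had been listed as changed in these same libraries in at least 1 comparison. Their counts are therefore not independent evidence, and shares above the background are built in. Differences were tested with limma on log2(normalized count + 1), which understates changes of low genes, and called at a Benjamini-Hochberg adjusted p under 0.05 over all tested genes. V3 buds differed from V2 buds at 5 d in 4 of 10 tested pathway genes, NPC3 higher and TPK5, KUP1 and KUP6 lower, against a background of 16.2% of all genes higher and 19.9% lower. The median was -0.28, against -0.04 over all tested genes, and without V3 5 d replicate 3 the count was 2. The share of all genes called depends on the rule for zeros. With zeros left out by FPKM alone, 1577 of 17860 genes were higher and 1586 lower, and 3 pathway genes were called. Under that rule fewer genes were called over all genes in the other comparisons too.

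At 0 d limma called 0 of 11 tested pathway genes between the zones, against 3.93% of all genes in either direction, with a median of -0.27 against -0.03 over all tested genes. An unadjusted p under 0.05 was reached by 2 of them, edgeR called 1 and DESeq2 called 4. Limma called 1 without V2 0 d replicate 2, and also 1 without V3 0 d replicate 2. Over time in V3 buds, 4 of 10 were higher and 3 lower at 5 d, against 13.4% and 10.9% of all genes, with a median of -0.29 against -0.02. That count of 7 was 4 without V3 5 d replicate 1, and also without V3 5 d replicate 3. In V2 buds 5 of 11 were higher and 1 lower at 5 d, against 12.5% and 11.3%, with a median of 0.74 against 0.00. The count of 6 was 3 without V2 0 d replicate 2 and 2 without V2 5 d replicate 2.

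**Figure D3:**
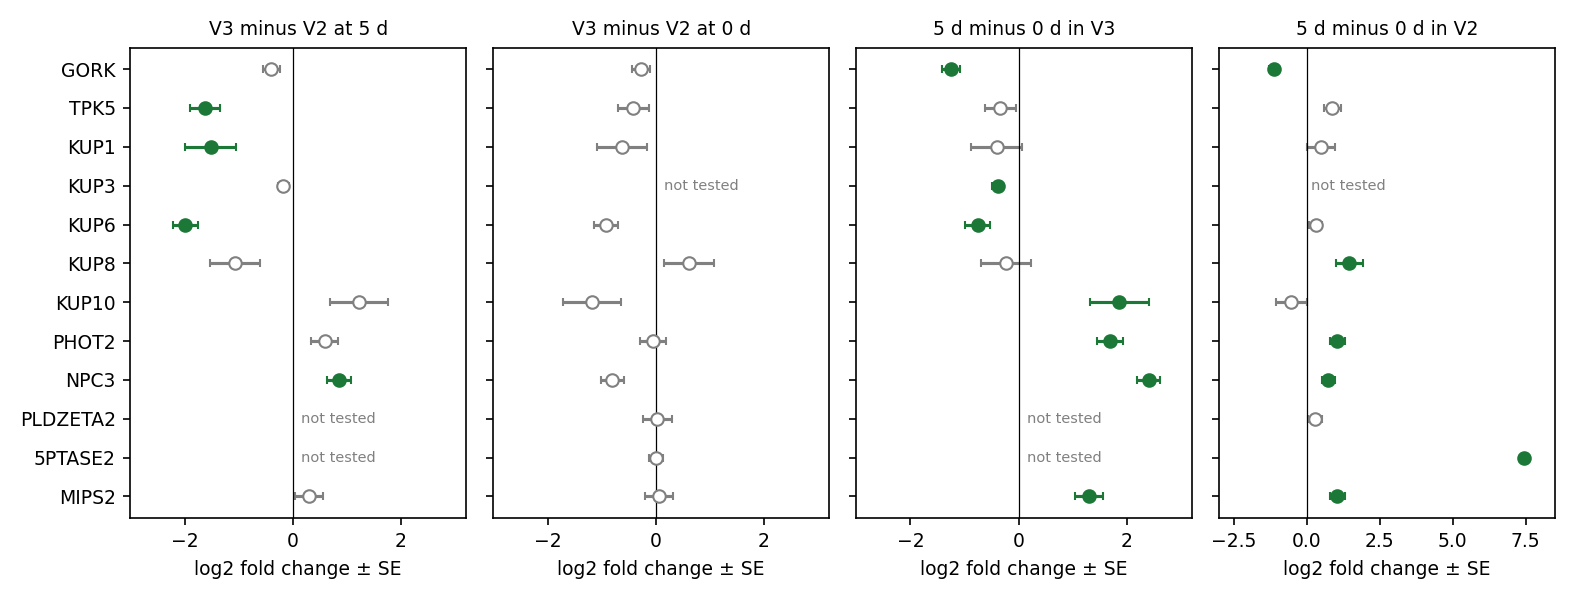
Log2 fold change of normalized count + 1 with its SE (limma) for 12 potassium and phosphoinositide pathway genes other than KAT2 and PLC1, in 4 comparisons; filled green points passed an adjusted p under 0.05 and open grey points did not. TPK5, KUP1 and KUP6 lie below 0 for V3 minus V2 at 5 d, NPC3 lies above it, and GORK lies below 0 over time in both zones; the panel for V2 over time has a wider axis because 5PTASE2 lies at 7.46.

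The other potassium channels that could be paired were GORK and TPK5, and neither was called higher in V3 at 5 d, where KAT2 was high. GORK, the outward-rectifying Shaker channel through which guard cells release potassium, fell over time in both zones. Its level was 4.28 ± 0.915 FPKM in V3 and 5.30 ± 0.169 FPKM in V2 at 5 d, and 9.68 ± 0.803 FPKM in V3 and 10.99 ± 0.731 FPKM in V2 at 0 d (SD, n = 3 each). The log2 fold change of 5 d over 0 d was -1.25 ± 0.16 in V3 (SE, limma adjusted p = 0.000699) and -1.13 ± 0.16 in V2 (adjusted p = 0.0018), and the 2 changes differed by -0.12 ± 0.23 (adjusted p = 0.791). TPK5, a channel of the tandem-pore family that the authors' tables call KCO5, was lower in V3 at 5 d, with 5.83 ± 0.705 FPKM against 11.9 ± 0.126 FPKM in V2 (log2 fold change -1.63 ± 0.28, limma adjusted p = 0.00229).

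The 5 carriers of the KUP family, which move potassium into cells or between compartments, did not follow 1 pattern. KUP6, known in A. thaliana from guard cells and from control of cell growth, averaged 6.44 ± 0.274 FPKM in V3 and 24.3 ± 4.72 FPKM in V2 at 5 d, and was lower in V3 by limma (log2 fold change -1.99 ± 0.23, adjusted p = 0.000314). KUP1 was also lower in V3 at 5 d (log2 fold change -1.52 ± 0.47, adjusted p = 0.0312), a call kept in 7 of 12 fits that each left out 1 library. KUP6 was lower at 5 d than at 0 d in V3 (-0.76 ± 0.23, adjusted p = 0.0366, kept in 4 of 12 such fits).

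Over time KUP10 was higher at 5 d in V3, with 48.0 ± 4.69 FPKM against 17.6 ± 10.9 FPKM at 0 d (log2 fold change 1.86 ± 0.54, adjusted p = 0.0337, kept in 9 of 12 fits and lost without any 1 of the V3 5 d libraries, at up to 0.0966). The V3 0 d libraries stood at 5.005, 22.7 and 24.9 FPKM, replicate 1 being the lowest. KUP8 was higher at 5 d in V2 (1.45 ± 0.46, adjusted p = 0.0498), a call kept in 3 of 12 fits. KUP3 was slightly lower at 5 d in V3 (-0.39 ± 0.10, adjusted p = 0.0261, kept in 8 of 12 fits). All 3 V2 0 d counts of KUP3 were 0 although its level there was 34.6 ± 4.89 FPKM, close to the 35.6 ± 2.89 FPKM of V3 at 0 d (SD, n = 3 each). The authors' deposited table lists KUP3 at a log2 fold change of 14.46 for V3 over V2 at 0 d, a fold whose V2 counts are all contradicted zeros.

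Of 22 loci for guard-cell ion control, which cover anion channels, proton pumps and kinases, PHOT2 alone was paired. PHOT2 is a blue-light receptor kinase that acts in stomatal opening. It was higher at 5 d in V3 (log2 fold change 1.69 ± 0.25, limma adjusted p = 0.00133) and in V2 (1.05 ± 0.25, adjusted p = 0.0161, or 0.0565 without V2 5 d replicate 2). Its level was 5.92 ± 0.347 FPKM in V3 and 3.77 ± 0.643 FPKM in V2 at 5 d, and the zones did not pass the test at that time (0.59 ± 0.25, adjusted p = 0.0915).

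NPC3, a non-specific phospholipase C that acts on other membrane lipids than PLC1 does, was the 1 listed phospholipase whose change over time was tested for a difference between zones, PLC1 being described without a test. Its level was 22.3, 23.7 and 27.1 FPKM in V3 and 13.7, 12.9 and 11.3 FPKM in V2 at 5 d. At 0 d the libraries stood at 3.73, 5.45 and 4.77 FPKM in V3 and 9.98, 6.32 and 7.84 FPKM in V2. NPC3 was thus highest in V3 at 5 d and lowest in V3 at 0 d, with no overlap between any 2 groups. It was higher in V3 than in V2 at 5 d (log2 fold change 0.86 ± 0.22, limma adjusted p = 0.0133, or 0.0505 without V3 5 d replicate 3), and at 0 d the value was -0.80 ± 0.22 (adjusted p = 0.0698).

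Over time NPC3 rose by 2.40 ± 0.22 in V3 on the log2 scale (limma adjusted p = 7.56e-05) and by 0.74 ± 0.22 in V2 (adjusted p = 0.0361, kept in 6 of 12 fits). The difference between these changes was 1.66 ± 0.30 (limma adjusted p = 0.0137, kept in 12 of 12 fits). NPC3 was 1 of 9 pathway genes tested for such a difference and the call among them, against 4.05% of all genes called in that direction. The median over the 9 was -0.12, against 0.00 over all tested genes. Without V3 0 d replicate 1 the count was 4, and without V2 0 d replicate 1 it was 2. PLDZETA2, a phospholipase D that the authors' tables call PLDP2, averaged 2.45 ± 0.227 FPKM in V3 and 4.22 ± 0.323 FPKM in V2 at 5 d, and 2.75 ± 0.823 FPKM in V3 and 3.24 ± 0.406 FPKM in V2 at 0 d (SD, n = 3 each). Only its comparisons at 0 d and over time in V2 could be tested, and limma called neither (adjusted p = 0.977 and 0.446).

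The enzymes around the PLC1 substrate and product were few. MIPS2, an inositol phosphate synthase that supplies inositol, was higher at 5 d in V3 (log2 fold change 1.29 ± 0.26, limma adjusted p = 0.00638) and in V2 (1.04 ± 0.26, adjusted p = 0.0195, lost without V2 5 d replicate 2 or replicate 3, at up to 0.0564). Its level was 194 ± 19.9 FPKM in V3 and 139 ± 11.9 FPKM in V2 at 5 d, and 77.1 ± 16.4 FPKM in V3 and 72.1 ± 17.2 FPKM in V2 at 0 d (SD, n = 3 each). 5PTASE2, a phosphatase that removes a phosphate from inositol phosphates and is named IP5PII in the authors' tables, averaged 1.03 ± 0.550 FPKM in V3 and 4.20 ± 1.09 FPKM in V2 at 5 d. At 0 d it averaged 0.130 ± 0.0564 FPKM in V3 and 0.508 ± 0.469 FPKM in V2. Its V2 libraries at 0 d were listed at 0 counts, 1 of them left out, so that the limma change of 7.46 ± 0.13 (adjusted p = 1.70e-07) depends on the pseudocount, and its adjusted p reached 0.0758 across the alternatives. PIP5K4, a kinase that makes the substrate of PLC1, averaged 0.197 ± 0.0589 FPKM in V3 and 0.804 ± 0.104 FPKM in V2 at 5 d, and was not tested because 8 of its counts were contradicted zeros.

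KAT2 is a guard-cell and phloem gene in A. thaliana, so markers of those cells were read beside it. Of 18 stomatal lineage and guard cell loci, 8 were paired, and their summed level was 83.7 to 104.5 FPKM in V3 and 39.9 to 42.4 FPKM in V2 at 5 d. At 0 d the sums were 44.7 to 53.8 FPKM in V3 and 35.9 to 44.5 FPKM in V2. The sum was therefore highest in the group where KAT2 was high, by a much smaller factor than KAT2 itself. All 8 were paired because the authors had listed them as changed. All but SCAP1 were listed as higher in V3 at 5 d, over V2 at 5 d or over V3 at 0 d. A high sum there is thus in part built in and is not independent evidence. SPCH, MUTE, FAMA, KAT1, SLAC1 and MYB60 are not analysed here, so the mature guard cell is marked by few genes. Of the 8, EPF1 was at 0 FPKM in V3 0 d replicate 2. The part of these cells in the KAT2 result was not tested.

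Limma called 3 of 7 tested stomatal genes higher in V3 at 5 d, against 16.2% of all genes. Over time in V3 it called 4 of 7 higher and 1 lower at 5 d, against 13.4% and 10.9% of all genes. These genes too were paired through the authors' tables and are not independent evidence. The 3 at 5 d were SDD1, a protease that limits stomatal number (log2 fold change 3.34 ± 0.39, adjusted p = 0.000342), POLAR, a polarity protein of the lineage (1.96 ± 0.26, adjusted p = 0.000656), and TMM, a receptor-like protein that patterns stomata (1.47 ± 0.18, adjusted p = 0.000467). Each of these 3 calls was kept in 12 of 12 fits that left out 1 library, while that of SDD1 over time in V3 was kept in 8 of 12. TMM, the most abundant of the list in V3 at 5 d, averaged 37.2 ± 6.25 FPKM in V3 and 12.9 ± 2.41 FPKM in V2 at that time. SCAP1, a factor of guard cell maturation, was the gene lower in V3 at 5 d than at 0 d (-1.11 ± 0.24, adjusted p = 0.00839). Its level in V3 was 4.23 ± 0.444 FPKM at 5 d and 8.96 ± 1.28 FPKM at 0 d (SD, n = 3 each). In V2 it was 5.17 ± 1.16 FPKM at 5 d and 6.28 ± 1.66 FPKM at 0 d. The SCAP1 mean was thus lowest in V3 at 5 d, where KAT2 was high. Limma did not call SCAP1 between the zones at 5 d (adjusted p = 0.268).

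**Figure D4:**
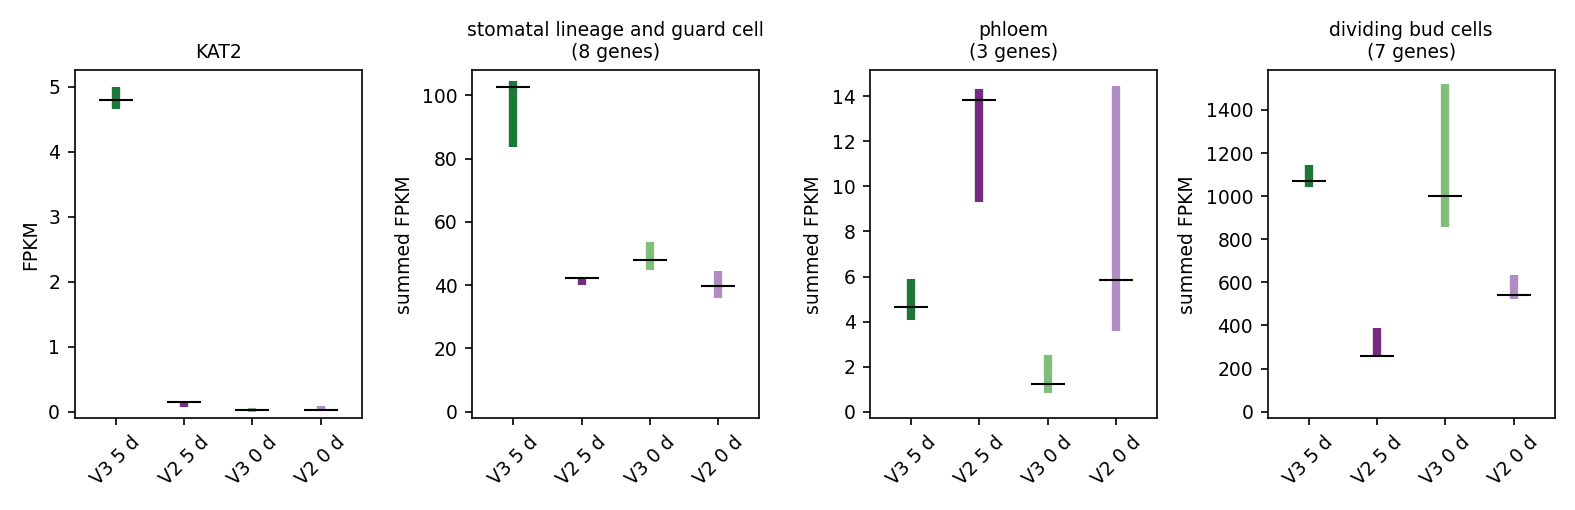
Range (bar) and median (black line) over 3 libraries of the FPKM of KAT2 and of the summed FPKM of paired markers of stomatal cells, phloem and dividing cells, for V3 and V2 at 5 d and at 0 d. The stomatal sum is highest in V3 at 5 d, as is KAT2. The phloem sum is higher in V2 than in V3 at 5 d, and the dividing-cell sum is high in V3 at both times. All markers were paired because the authors had listed them as changed, so the sums are not independent evidence.

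The phloem sum was not highest in V3 at 5 d, where KAT2 was high. Of 8 loci, FTIP1, PP2-A1 and APL were paired, and their sum was 4.06 to 5.89 FPKM in V3 and 9.33 to 14.4 FPKM in V2 at 5 d, and 0.832 to 2.53 FPKM in V3 and 3.595 to 14.5 FPKM in V2 at 0 d. The low V3 values at 0 d and the higher ones at 5 d lie in the direction of PLC1, and of KAT2 in V3. Over time in V3 limma called 2 of 2 tested phloem genes higher at 5 d, against 13.4% of all genes. FTIP1 changed by 1.205 ± 0.346 (adjusted p = 0.0327, kept in 7 of 12 fits that left out 1 library). PP2-A1 changed by 3.575 ± 1.096 (adjusted p = 0.0418, kept in 3 of 12). For V3 minus V2 at 5 d limma called 0 of 2, against 16.2% of all genes higher and 19.9% lower. PP2-A1, a phloem lectin, was at 0 FPKM in V3 0 d replicate 1, the library with the lowest PLC1. The part of phloem in the PLC1 result was not tested. The 7 markers of dividing cells summed to 1043 to 1145 FPKM in V3 and 253 to 386 FPKM in V2 at 5 d, and to 855 to 1521 FPKM in V3 and 523 to 635 FPKM in V2 at 0 d. The median sum in V3 was 998.5 FPKM at 0 d, beside a KAT2 level of at most 0.0573 FPKM, and 1072 FPKM at 5 d. The highest sum at 0 d was that of V3 0 d replicate 1. HTA6, the largest part of the sum, stood at 973 FPKM there and at 514 and 628 FPKM in its partners. All 7 lie in the authors' tables and were called higher in V3 at 5 d by limma, against 16.2% of all genes, CYCB1;1 in 3 of 12 fits that left out 1 library. For photosynthetic tissue 0 of 8 photosynthetic loci could be paired.

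The genes most like KAT2 in pattern were sought by Pearson correlation of log2(normalized count + 1) over the 11 usable libraries, among 1226 genes with a symbol. The correlation is a description. Since 8 of the 11 KAT2 values are 0, it ranks genes by how cleanly V3 at 5 d stands above the rest. The scatter among libraries counts in this, and the size of the step does not. First came DiT2.2, a plastid dicarboxylate transporter (r = 0.986), at 48.1 ± 2.05 FPKM in V3 and 18.8 ± 1.24 FPKM in V2 at 5 d. GSTU20, a glutathione transferase, followed (r = 0.976), then CYP98A3, a hydroxylase of lignin synthesis (r = 0.974), GIS, a zinc finger factor of trichome formation (r = 0.971), FLR1, a leucine-rich repeat protein (r = 0.969), and PAR2, a negative factor of shade responses (r = 0.968). GIS stood at 19.5 ± 2.53 FPKM in V3 and 2.55 ± 0.0386 FPKM in V2 at 5 d, and PAR2 at 27.3 ± 3.59 FPKM in V3 and 2.82 ± 0.533 FPKM in V2. Their folds were smaller than that of KAT2.

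For PLC1, over 10 usable libraries and 1240 genes, the most alike was CYP79B2, an enzyme that turns tryptophan into a precursor of indole glucosinolates and auxin (r = 0.985). It averaged 57.6 ± 13.7 FPKM in V3 and 26.3 ± 13.9 FPKM in V2 at 5 d, and 0.569 ± 0.737 FPKM in V3 and 4.94 ± 2.98 FPKM in V2 at 0 d (SD, n = 3 each). ATBBE26 (r = 0.984), the ethylene response factor ERF15 (r = 0.978), the bHLH protein AIF4 (r = 0.972), PARVUS, a glycosyltransferase of xylan synthesis (r = 0.969), and TBL19 (r = 0.969) came next. TBL19 averaged 48.8 ± 3.79 FPKM in V3 and 19.7 ± 6.43 FPKM in V2 at 5 d, and 0.443 ± 0.328 FPKM in V3 and 2.55 ± 1.97 FPKM in V2 at 0 d. Of the 10 PLC1 values, those of V3 0 d replicates 1 and 3 are 0 and the others are 241 to 996. The ranking thus favours genes that are low in those V3 0 d libraries. Each of these genes had its lowest mean FPKM in V3 at 0 d, as PLC1 did, which is therefore in part built in.

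On log2(FPKM + 1) over all 12 libraries, a measure added after the data had been seen, 1535 genes were compared and the lists changed. FLA12, a fasciclin-like cell wall protein, then led for KAT2 (r = 0.989), with 4.13 ± 0.473 FPKM in V3 and 0.295 ± 0.123 FPKM in V2 at 5 d. ATCSLA15, ATSDI1, CP2, GSTU20 and MTHFR2 followed, and ATSDI1, a gene induced by sulphur deficiency, stood at 117 ± 44.1 FPKM in V3 and 0.0274 ± 0.0475 FPKM in V2 at 5 d. GGP1, a peptidase of glutathione conjugates, led for PLC1 (r = 0.986), followed by AIF4, TIFY7, FAH1, GT72B1 and NPF2.11. GSTU20 for KAT2 and AIF4 for PLC1 were the genes named on both scales.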

How the data were processed

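The deposited table of 19722 genes in 12 libraries and the authors' 4 tables of listed genes were used. Libraries were 150 bp single-end, and HISAT2, StringTie, TopHat and DESeq2 are named in the submitters' processing notes; the sources used here give neither their versions and settings nor a genome build. Per the file headers the signal values are counts, which the authors had divided by 1 factor per library, since 100% of values were whole multiples of 1 step within 0.05. That step is near 1 in replicate 2 of V2 at 0 d and at 5 d. The authors deposited FPKM per library for 3877 of 3884 listed genes. The authors deposited log2 fold changes and adjusted p-values for listed genes. Homologues are given for 2896 of them.

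A zero count was left out where its FPKM was at least 1, where FPKM times the gene's median count per FPKM reached 20, or, with no FPKM, where a partner library held at least 20. In all 17395 were left out, 5320 by FPKM and 12075 by partners. Limma 3.58.1 (R 4.3.3, intensity trend) was fitted to log2(normalized count + 1) of all 12 libraries, 1 mean per group, for genes whose mean was 10 or more and which had 2 or more usable libraries per compared group. Values are mean ± SD, and fold changes carry an SE. edgeR 4.0.16 and DESeq2 1.42.0 on recovered reads were alternatives, and the limma script was tested on simulated data. The members and the gene lists were chosen with earlier results of these data known. Both members, every paired gene of the 5 pathway lists, and the 6 symbol-bearing genes most alike to each member were named; marker genes given by name were chosen after their values were seen. The number of per-sample columns left unused was 0.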

Additional observations from a re-analysis of the deposited data

Results flagged for a closer look

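The change over time, 5 d minus 0 d, differed between V3 and V2 by limma's test of the difference in 4 of the list genes read beside KAT2 and PLC1, against 4.05% of all genes called higher. Those tested were 9 pathway, 7 stomatal, 2 phloem and 7 dividing-cell genes, all paired through the authors' tables. The difference of log2 changes was 1.66 in NPC3 (adjusted p = 0.0137). It was 2.86 in SDD1 (adjusted p = 0.0161). In TMM it was 1.23 (adjusted p = 0.0236, kept in 8 of 12 fits that each left out 1 library). In CYCA1;1, a cyclin of dividing cells, it was 1.09 (adjusted p = 0.0383, kept in 1 of 12 fits). Part of the difference in SDD1 and CYCA1;1 was a fall in V2. By limma SDD1 changed by 1.495 in V3 (adjusted p = 0.0214) and by -1.36 in V2 (adjusted p = 0.0332, kept in 8 of 12 fits). CYCA1;1 changed by 0.21 in V3 (limma adjusted p = 0.4535) and by -0.88 in V2 (adjusted p = 0.0103).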

How the results depend on the processing

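Member values are differences of log2(normalized count + 1). For KAT2 they were 9.33 for V3 minus V2 at 5 d, for time in V3 and for the difference in time changes, each 9.24 to 9.37 with 1 library left out, and 0 for the other comparisons in every such fit. With a pseudocount of 5 each was 7.02, and on log2(FPKM + 1) they were 2.37, 2.50 and 2.40, with -0.026 for V3 minus V2 at 0 d and 0.10 for time in V2. For PLC1 the main values were -8.48 for V3 minus V2 at 0 d, 0.26 at 5 d, 1.14 for time in V2, 9.88 for time in V3 and 8.75 for the difference. Leaving out 1 library gave -9.05 to -7.92, 0.12 to 0.37, 0.57 to 1.70, 9.84 to 9.92 and 8.18 to 9.31. Zeros as deposited gave -5.66 at 0 d, 3.96 for time in V2 and 5.92 for the difference; a pseudocount of 5 gave -6.18 at 0 d, 7.57 for time in V3 and 6.44 for the difference; log2(FPKM + 1) gave -2.49, 4.16 and 2.85 for these. The sizes against groups listed at 0 are set by the pseudocount. TMM scaling left all 10 member values within 1 SD.

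Pathway genes called were 0 for V3 minus V2 at 0 d, 4 at 5 d, 6 for time in V2, 7 for time in V3 and 1 for the difference. Leaving out 1 library gave 0 to 1, 2 to 5, 2 to 7, 4 to 7 and 1 to 4. Zeros as deposited gave 1 at 0 d, 4 for time in V3 and 3 for the difference, and leaving zeros out by FPKM alone gave 4 for time in V3. edgeR gave 1 at 0 d, 3 for time in V2, 4 for time in V3 and 2 for the difference, and DESeq2 gave 4 at 0 d and 5 for the difference; the cause was not tested. Another pseudocount, no filter, a mean of at least 50 and TMM kept all 5 counts within 1.5 times. With the replicate number as a block the pathway counts also stayed within 1.5 times, at 0, 4, 5, 5 and 1 in the same order. Same-numbered libraries did not deviate together (correlation -0.18 to 0.0778, median -0.0339), and 1 of 12 correlated best with its own number, so the numbers were not taken to pair libraries.

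Over all genes the calls were 649 for V3 minus V2 at 0 d, 6247 at 5 d, 3936 for time in V2, 4176 for time in V3 and 1187 for the difference. Zeros as deposited gave 577, 3131, 2140, 2052 and 764, zeros left out by FPKM alone 85, 3163, 1694, 2043 and 294, edgeR 394, 2760, 1705, 1583 and 516, and DESeq2 2193, 4670, 4028, 3663 and 2051, in that order. The replicate block gave 299 at 0 d and 757 for the difference. Leaving out 1 library gave 161 to 1655, 4727 to 7040, 2033 to 4934, 2840 to 4111 and 667 to 1929. A group at 0 in every library adds no spread to the fit, which can make the p-values of such genes too small. Outside V3 at 5 d KAT2 is listed at 0 counts in 9 libraries, 8 of them with an FPKM above 0, and whether depth sets these zeros was not tested.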
